A study of Mus musculus with 24 samples.

Results

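The 9 genes described here encode enzymes that remove methyl groups from lysine 9 of histone H3 (H3K9): *Kdm1a*, *Kdm3a*, *Kdm3b*, *Kdm4a*, *Kdm4b*, *Kdm4c*, *Kdm4d*, *Kdm7a* and *Phf2*. They were taken by symbol from the 47937 genes of the count table, and all 9 were found. RNA of mouse embryonic fibroblasts (MEFs) was sequenced in 8 conditions with 3 cultures each, 24 libraries in all, and the study compared cells that had lost increasing numbers of the 6 methyltransferases that write H3K9 methylation. The question asked of the 9 genes was whether the transcripts of the erasers differed once the writers were inactivated.

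All libraries derived from a clone with a conditional *Eset1* (*Setdb1*) allele and a tamoxifen-inducible Cre recombinase. WT was this clone without 4-hydroxytamoxifen (4-OHT), and *E1* was the same clone after 1 μM 4-OHT, which deletes floxed exons of *Eset1*. In the first series of clones, *E1 S1S2* had also lost *Suv39h1* and *Suv39h2*, and *6KO1* had in addition lost *Eset2* (*Setdb2*), *G9a* (*Ehmt2*) and *Glp* (*Ehmt1*). In the second series, *E2* was an *Eset2*-mutant clone without 4-OHT, *E1E2* was that clone with 4-OHT, *E1E2 G9Gl* had further lost *G9a* and *Glp*, and *6KO2* had then lost *Suv39h1* and *Suv39h2*. Both *6KO* lines therefore lacked all 6 enzymes, reached in a different order. The mutations were made with CRISPR/Cas9, each line was 1 selected clone, and the inducible Cre was introduced again after the mutations. A p-value here measures the spread between cultures of a clone, so genotype and clone cannot be told apart. The treatment field of the labels names 4-OHT for every sample. The titles, which mark WT and *E2* as controls, were followed.

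Methylated H3K9 is the mark that HP1 proteins bind in heterochromatin, and it is erased by enzymes of separate families. Kdm1a (LSD1) is a flavin-dependent amine oxidase that works in the CoREST complex on mono- and dimethylated lysine 4 and, in some settings, lysine 9. The others carry a Jumonji C (JmjC) domain and need iron, oxygen and 2-oxoglutarate. Kdm3a and Kdm3b act on mono- and dimethylated H3K9, Kdm4a, Kdm4b and Kdm4c on trimethylated H3K9 and on H3K36, Kdm4d on H3K9 without H3K36, and Kdm7a and Phf2 belong to the family that reads trimethylated H3K4 with a PHD finger and removes dimethylation. *Kdm3a* is also a known target of the hypoxia-inducible factor.

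On GRCm38, *Kdm1a* (chr4:136550540-136602723, minus strand), *Kdm4a* (chr4:118136957-118180043, minus) and *Kdm4c* (chr4:74242497-74405860, plus) lie on chromosome 4, and *Kdm3a* (chr6:71588972-71632990, minus) and *Kdm7a* (chr6:39136623-39206789, minus) on chromosome 6. *Kdm3b* is at chr18:34777047-34838660 (plus), *Kdm4b* at chr17:56326062-56402870 (plus), *Kdm4d* at chr9:14462548-14500482 (minus) and *Phf2* at chr13:48801750-48871119 (minus). All 9 are annotated as protein coding. Exons of 3 members overlap a gene on the opposite strand: *Kdm3b* shares 3468 bases with *Gm26538* (18 counts over all libraries), *Kdm7a* 287 bases with *4930599N23Rik* (300.0 counts) and *Phf2* 8 bases with *Phf2os1* (300.0 counts). The libraries were stranded, but the strand setting of the counting was not given in the sources used here.

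RefSeq promoter windows on GRCm38.p6, from 250 bases before to 50 after a start site, were at hand for 7 of the 9 members (10 windows in all). The window of *Kdm3a* at chr6:71632868-71633167 (minus strand) is shown because the level of this gene went together with that of hypoxia-inducible genes in 1 condition. It holds 1 match to ACGTG or GCGTG, the core of the hypoxia response element, searched on both strands and with overlaps counted, and the capitals mark this match, which begins at position -27 from the start site.

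Kdm3a: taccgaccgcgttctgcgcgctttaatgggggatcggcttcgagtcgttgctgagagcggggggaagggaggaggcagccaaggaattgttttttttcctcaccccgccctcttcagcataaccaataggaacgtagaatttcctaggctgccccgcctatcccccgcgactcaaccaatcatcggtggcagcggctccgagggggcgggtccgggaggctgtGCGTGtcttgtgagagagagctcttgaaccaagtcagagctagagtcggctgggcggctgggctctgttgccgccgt

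The other 2 windows of *Kdm3a* hold no match, and 4 of the 10 member windows and 43.8% of all 32851 windows hold at least 1, so a match sets no gene apart. The windows of *Kdm7a* (chr6:39206724-39207023, minus) and *Kdm4d* (chr9:14500433-14500732, minus) are shown because *Kdm7a* had the widest range between conditions among the well-counted members and *Kdm4d* was barely expressed. Capitals mark CG dinucleotides, the sites of DNA methylation.

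Kdm7a: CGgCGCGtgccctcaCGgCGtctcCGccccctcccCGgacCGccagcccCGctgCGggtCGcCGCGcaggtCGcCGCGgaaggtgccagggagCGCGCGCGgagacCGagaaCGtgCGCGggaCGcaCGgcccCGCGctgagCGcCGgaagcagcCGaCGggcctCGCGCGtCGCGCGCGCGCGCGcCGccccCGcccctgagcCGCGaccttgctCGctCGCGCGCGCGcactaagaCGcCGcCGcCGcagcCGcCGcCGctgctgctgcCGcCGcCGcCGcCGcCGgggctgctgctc

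Kdm4d: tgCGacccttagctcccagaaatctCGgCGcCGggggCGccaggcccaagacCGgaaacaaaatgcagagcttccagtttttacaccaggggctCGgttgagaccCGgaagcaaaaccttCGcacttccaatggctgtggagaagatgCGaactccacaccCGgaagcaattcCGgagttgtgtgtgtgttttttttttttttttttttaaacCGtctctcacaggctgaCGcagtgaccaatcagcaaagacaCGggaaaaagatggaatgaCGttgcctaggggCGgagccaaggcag

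The *Kdm7a* window has 65 CG dinucleotides, a number reached by 0.00913% of all windows, and the *Phf2* window has 63. The *Kdm4d* window has 17, against a median of 7 over all windows. DNA methylation was not measured in the files used here.

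The libraries held 24736829 to 37419071 counts, of which 19541909 to 31489070 were on genes. WT replicate 2 stood apart from the other WT libraries: the chi-square per gene was 59.8 and 50.01 against them, compared with 4.54 between WT replicates 1 and 3 and 2.16 to 22.2 in the other conditions. It was the lowest WT library for 7 of the 9 members, so comparisons with WT are given with and without it where a call depends on it. RNA of the targeted genes fell in most of the mutants, with exceptions: *Suv39h2* RNA was higher in *E1 S1S2* (log2 fold change 0.76 ± 0.07 SE), and *Setdb1* RNA was lower to the same extent in the libraries labelled *E2* and *E1E2* (-0.31 in each), where 4-OHT should separate them. Frameshift mutations need not lower RNA, and a count over the whole gene tests the deletion of 2 exons only in part. Among fibroblast markers, *Lum* had at most 1 count in any library, and *Thy1* was at 0 to 1.79 normalized counts in *E1 S1S2*. The summed level of 10 fibroblast markers ranged from 166157 to 211386 in WT and from 92505 to 104826 in *6KO1*. It was 138932 to 142530 in *6KO2* and, above every WT library, 212555 to 230951 in *E1E2 G9Gl*. The summed level of 6 immune markers was 88.8 to 103.7 in WT, 479.6 to 547 in *6KO1* and 309 to 337 in *E1E2 G9Gl*. In *6KO1* the sum was nearly all *Cd68* (mean 488, against 97.7 in WT), with *Ptprc* at 15.6, *Lyz2* at 6.15 and *Adgre1* and *Cd3e* at 0. In *E1E2 G9Gl*, *Lyz2* (151), *Ptprc* (47.4) and *Cd3e* (41.7) were detected beside *Cd68* (85.5), and *Adgre1* was at 0. Whether these shifts bear on the members was not tested, and fewer cells of a type cannot be told apart from less RNA per cell.

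Counts below are normalized for library size and composition, fold changes are log2 values with their standard error (SE), and a member passed the test at an adjusted p of at most 0.01 in edgeR's quasi-likelihood test over 18565 genes. Counts of members are over the 8 that had at least 10 counts in every library; *Kdm4d* is described by its values. Against WT, 0 of 8 members passed in *E1* (13.3% of all genes passed, 3 members were at an unadjusted p under 0.05, and 0 members passed with DESeq2 as well), 4 in *E1 S1S2* (41.8% of all genes), 6 in *6KO1* (66.2%) and, in the second series, 1 in *E2* (27.0% of genes), 2 after 4-OHT in *E1E2* (33.2%), 5 once *E1E2 G9Gl* was reached (59.1%) and 6 for *6KO2* (54.5%). Between successive lines, 2 passed from *E1* to *E1 S1S2* (33.5% of all genes), 3 from *E1 S1S2* to *6KO1* (53.3%), 1 from *E2* to *E1E2* (11.9%), 2 from *E1E2* to *E1E2 G9Gl* (53.4%) and 1 from *E1E2 G9Gl* to *6KO2* (43.6%), and 2 differed between *6KO2* and *6KO1* (49.2%). Among the 8, a change of at least 2-fold passed in 2 comparisons, both in *Kdm7a*: it was higher in *6KO1* than in WT, where 20.6% of all genes were higher to that extent, and lower in *6KO2* than in *6KO1*, where 9.77% were. The shares of the 8 members lay on both sides of those of all genes, and the changes went in both directions: 4 members rose and 2 fell in *6KO1*, and 3 rose and 3 fell in *6KO2*. The median log2 change of the 8 was 0.27 in *6KO1* (0.06 over all genes) and 0.03 in *6KO2* (0.04 over all genes).

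**Figure D1:**
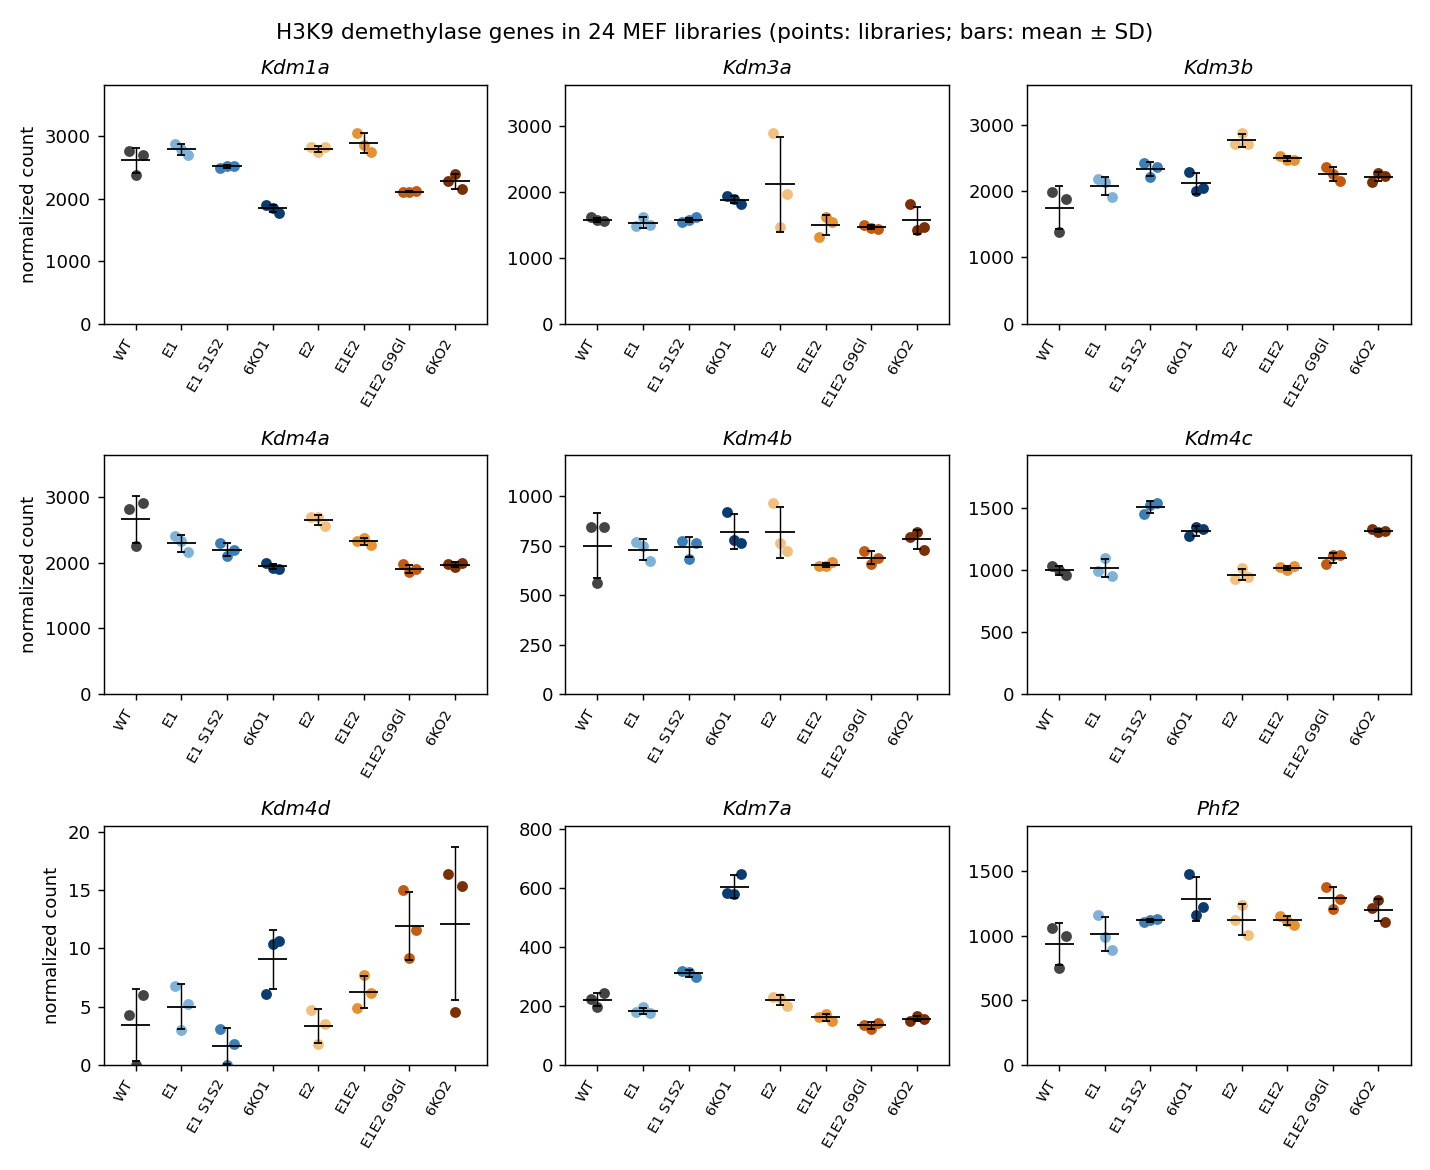
Normalized counts (vertical axis, from 0, a scale for each panel) of the 9 genes in the 8 conditions (horizontal axis); each point is 1 library, horizontal bars are means and vertical bars the SD of 3 libraries. *Kdm7a* in *6KO1* lay between 579.8 and 649, above every other library, while the *Kdm3a* libraries of *E2* were spread from 1466 to 2896.

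*Kdm7a*, the eraser of dimethylated H3K9 and H3K27, showed the largest differences of the 8. WT libraries had 224, 197 and 242 normalized counts and *E1* libraries 178, 195 and 176. *E1 S1S2* had 318, 316 and 297, and *6KO1* had 584, 579.8 and 649. In the first series the conditions did not overlap from *E1 S1S2* onward, and the rise came in both steps: 0.76 ± 0.09 on the log2 scale from *E1* to *E1 S1S2* (edgeR adjusted p = 3.16e-07) and 0.96 ± 0.08 from *E1 S1S2* to *6KO1* (edgeR adjusted p = 9.58e-10). Against WT, *6KO1* was 2.74-fold higher (log2 1.45 ± 0.09, edgeR adjusted p = 6.59e-13).

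In the second series *Kdm7a* was lower than WT from *E1E2* onward. *E2* had 231, 227 and 199 normalized counts, overlapping WT, and *E1E2* had 160.4, 174 and 148. *E1E2 G9Gl* had 136, 122 and 143, the lowest libraries of all, and *6KO2* had 149.9, 166 and 155. Against WT these conditions fell by 0.46 (*E1E2*), 0.73 (*E1E2 G9Gl*) and 0.49 (*6KO2*) on the log2 scale, with edgeR adjusted p-values of 0.000397, 7.31e-07 and 0.000102. The lines that lacked all 6 enzymes thus lay on either side of WT, and *6KO2* was lower than *6KO1* by a log2 difference of -1.95 ± 0.09 (edgeR adjusted p = 2.16e-14). The order of the condition means was *6KO1*, *E1 S1S2*, WT, *E2*, *E1*, *E1E2*, *6KO2* and *E1E2 G9Gl*; the pairs WT and *E2*, and *E1E2* and *6KO2*, overlapped. With the 6 libraries of a comparison alone, *E1E2* and *6KO2* did not pass against WT (edgeR adjusted p = 0.0338 and 0.0128). Without WT replicate 2, *E1* also passed against WT (-0.35, edgeR adjusted p = 0.00941, against -0.27 and 0.0423 with it). The 44 genes within 5 Mb of *Kdm7a* with a mean above 100 counts had a median log2 change of 0.37 in *6KO1* and 0.17 in *6KO2*, and the 565 such genes of chromosome 6 had 0.13 and 0.05.

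**Figure D2:**
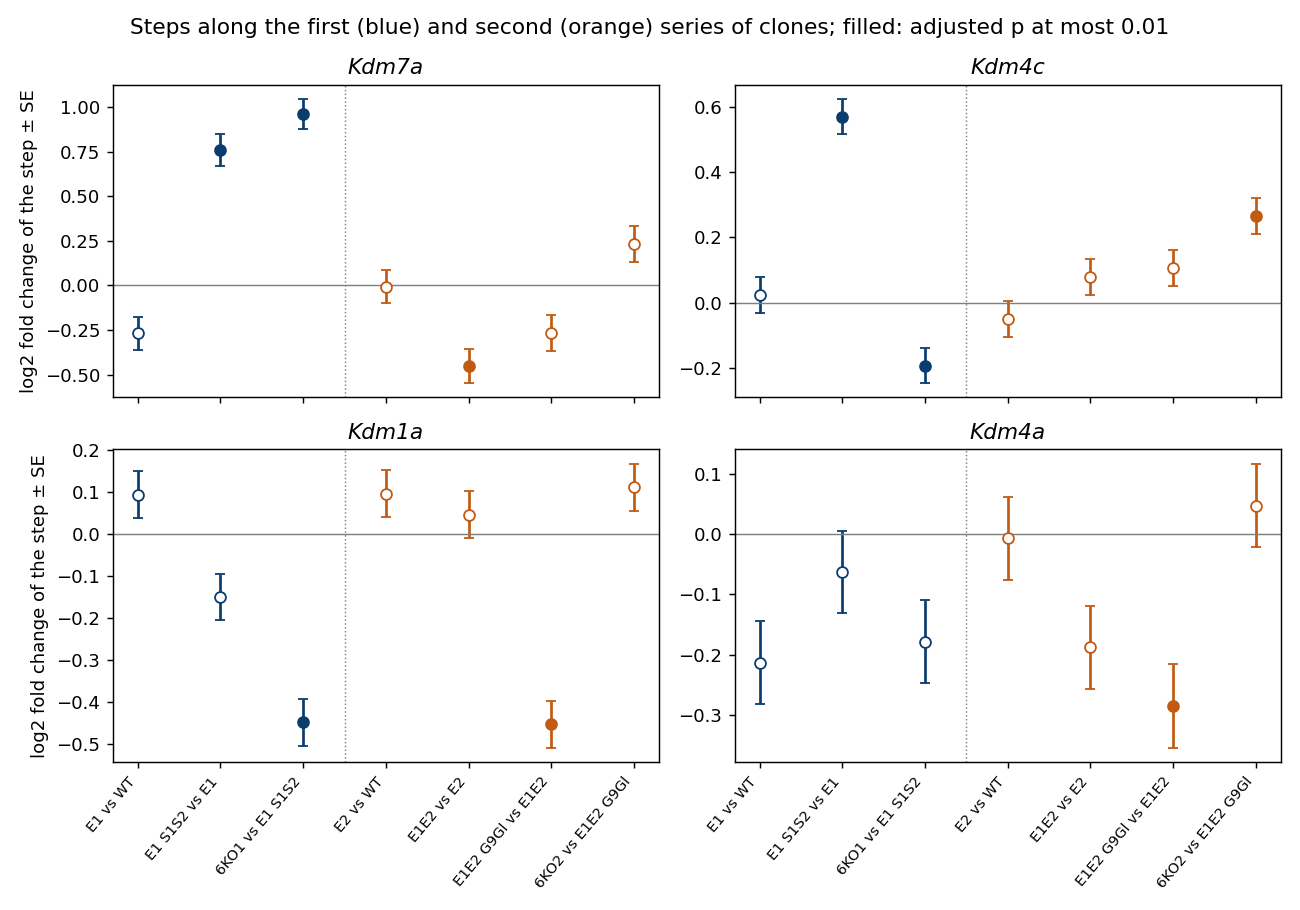
Log2 fold change of each step between successive lines (vertical axis, ± SE from edgeR, 3 libraries a condition) for *Kdm7a*, *Kdm4c*, *Kdm1a* and *Kdm4a*, first series in blue and second in orange; filled points passed the test. *Kdm7a* rose in 2 steps of the first series and fell from *E2* to *E1E2* in the second, and *Kdm1a* fell in the step that removed *G9a* and *Glp* in each series.

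*Phf2*, the relative of *Kdm7a* whose enzyme is switched on by phosphorylation, passed against WT in the lines without *G9a* and *Glp*. WT libraries had 1060.0, 748 and 1001 normalized counts, *6KO1* 1481, 1160.5 and 1220.3, *E1E2 G9Gl* 1380.4, 1208 and 1285, and *6KO2* 1215, 1280.1 and 1108. Each of these libraries lay above each WT library, and so did those of *E1 S1S2* (1107 to 1129) and *E1E2* (1086 to 1155), where the change was 0.26 in each and did not pass (edgeR adjusted p = 0.0573 and 0.0676). *Phf2* rose by 0.46 ± 0.11 in *6KO1*, by 0.47 ± 0.11 in *E1E2 G9Gl* and by 0.36 ± 0.11 in *6KO2* (edgeR adjusted p = 0.000823, 0.000919 and 0.00797). Without WT replicate 2 the values were 0.32, 0.32 and 0.22, and *6KO2* no longer passed (edgeR adjusted p = 0.0643). The call in *6KO2* was lost for 11 of the 24 libraries left out in turn, that in *6KO1* without *6KO1* replicate 1 (0.34, edgeR adjusted p = 0.0156), and all 3 with the 6 libraries alone (0.0504, 0.03 and 0.0166 for *6KO2*, *6KO1* and *E1E2 G9Gl*). No step between successive lines passed for *Phf2*, and neighbours in the order of condition means overlapped throughout. *Phf2* and *Kdm7a* therefore differed in direction in *E1E2 G9Gl* and *6KO2*.

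Of the Kdm4 enzymes that act on trimethylated H3K9, *Kdm4c* rose and *Kdm4a* fell. *Kdm4c* had 1028, 1002 and 958 normalized counts in WT, and the *E1*, *E2* and *E1E2* libraries overlapped these. *E1 S1S2* had 1447, 1522 and 1535, *6KO1* 1270.0, 1343 and 1326, and *6KO2* 1329, 1303 and 1311. The lines without *Suv39h1* and *Suv39h2* thus lay above all others, with *E1E2 G9Gl* (1047, 1116 and 1116) next. Against WT, *Kdm4c* rose by 0.59 ± 0.05 in *E1 S1S2*, by 0.40 ± 0.05 in *6KO1* and by 0.40 ± 0.05 in *6KO2* (edgeR adjusted p = 3.8e-09, 7.21e-07 and 1.18e-06). *Kdm4c* rose in the step from *E1* to *E1 S1S2* (0.57 ± 0.05, edgeR adjusted p = 1.13e-08) and in the step from *E1E2 G9Gl* to *6KO2* (0.27 ± 0.05, edgeR adjusted p = 0.000256), the steps in which the *Suv39h* genes were lost in each series. It fell from *E1 S1S2* to *6KO1* (-0.19 ± 0.05, edgeR adjusted p = 0.00324), a call lost without *E1 S1S2* replicate 2 or 3 (-0.19 and -0.18, edgeR adjusted p = 0.0127 and 0.0152) and with a mean above 100 (0.019). Between *6KO2* and *6KO1* the difference was 0.00 ± 0.05. The 13 measured genes within 5 Mb of *Kdm4c* had median changes of -0.02 (*E1 S1S2*), -0.33 (*6KO1*) and 0.05 (*6KO2*) against WT, and 0.28 from *E1E2 G9Gl* to *6KO2*.

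*Kdm4a*, which also demethylates H3K36, was lower than WT in lines of both series, but not in *E2* (-0.01 ± 0.07, edgeR adjusted p = 0.975). With all libraries, *E1* (-0.21) and *E1E2* (-0.19) did not pass (edgeR adjusted p = 0.0286 and 0.0245). WT libraries had 2822, 2253 and 2903 normalized counts and *E2* libraries 2688, 2694 and 2555. *6KO1* had 1990.0, 1924 and 1909, *E1E2 G9Gl* 1975, 1852 and 1895, and *6KO2* 1979.6, 1934 and 1999. These 9 libraries lay below every library of the other 5 conditions. The falls against WT were -0.45 ± 0.07, -0.48 ± 0.07 and -0.43 ± 0.07 (edgeR adjusted p = 3.11e-06, 1.8e-06 and 9.65e-06), and *E1 S1S2* was lower by -0.28 ± 0.07 (edgeR adjusted p = 0.00169). The call in *E1 S1S2* was lost without WT replicate 1 or 3 (-0.23 and -0.21, edgeR adjusted p = 0.0122 and 0.0198), without *E1 S1S2* replicate 2 (-0.24, 0.0126) and with the 6 libraries alone (0.122), where *6KO2* also did not pass (0.0108). Of the steps, *E1E2* to *E1E2 G9Gl* passed (-0.28 ± 0.07, edgeR adjusted p = 0.00104), though not without *E1E2 G9Gl* replicate 2 (-0.26, 0.0105). Without WT replicate 2 the change against WT in *E1* (-0.32) and in *E1E2* (-0.30) passed as well, with edgeR adjusted p-values of 3.51e-05 and 2.99e-05, and so did the steps from *E1 S1S2* to *6KO1* (-0.18, 0.00108) and from *E2* to *E1E2* (-0.19, 0.00302).

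*Kdm4b*, the third enzyme of this kind, passed in no comparison in edgeR with all libraries and the filter on low counts. WT libraries had 846, 559 and 843 normalized counts, and the *E2* libraries 965, 763 and 725. The lowest condition was *E1E2* with 648, 645 and 666, and adjacent conditions in the order of the means overlapped. The largest change against WT was -0.20 ± 0.12 in *E1E2* (edgeR adjusted p = 0.207). Without WT replicate 2 it was -0.37 and passed (edgeR adjusted p = 0.00363), as did the step from *E2* to *E1E2* (-0.32, 0.00847). This step also passed without the filter on low counts (-0.34, edgeR adjusted p = 0.00297).

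*Kdm4d*, best known from testis, was close to the detection limit. Its read counts were 4, 0 and 6 in WT, 7, 3 and 6 in *E1*, and 4, 0 and 2 in *E1 S1S2*. *6KO1* libraries had 7, 12 and 11, *E1E2 G9Gl* libraries 14, 8 and 9, and *6KO2* libraries 16, 4 and 14. In *E2* there were 4, 2 and 3 counts and in *E1E2* 5, 7 and 6. The libraries with 10 or more counts, 5 of 24, all came from the 3 lines without *G9a* and *Glp*. The gene passed the filter on low counts through those conditions, and a library with a count of 0 still allows up to 3 counts. The fitted log2 changes against WT were 1.83 ± 0.60 in *E1E2 G9Gl* and 1.86 ± 0.59 in *6KO2*, and 1.204 and 1.24 without WT replicate 2, which had 0 counts. Since the gene entered the fit through the lines in which it was high, no call is read from these values.

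**Figure D3:**
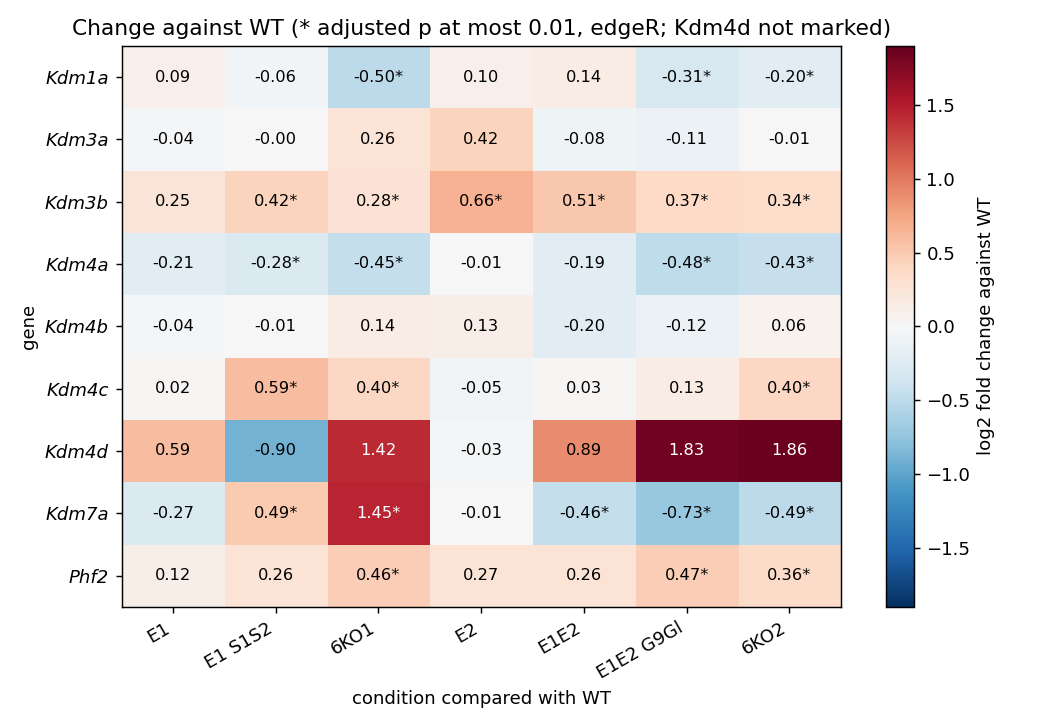
Log2 fold change against WT (colour and printed value) of the 9 genes (rows) in the 7 other conditions (columns); an asterisk marks an edgeR adjusted p of at most 0.01, and *Kdm4d*, with at most 16 counts a library, is not marked. *Kdm7a* in *6KO1* (1.45) was the only marked change of 2-fold or more.

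Of the Kdm3 enzymes, which act on mono- and dimethylated H3K9, the mean of *Kdm3b* was above that of WT in every mutant line, and 6 of the 7 differences passed. WT libraries had 1982, 1382 and 1888 normalized counts. *E2* had 2717, 2884 and 2708 and *E1E2* 2535, 2477 and 2475, and these 2 conditions overlapped neither WT nor each other. *E1 S1S2* had 2426, 2218 and 2364, and *E1E2 G9Gl* had 2369.9, 2265 and 2155. *Kdm3b* was thus highest in the clone with the *Eset2* mutation alone, where the difference from WT was 0.66 ± 0.09 (edgeR adjusted p = 3.35e-06), and lower in the later lines of that series: *E1E2* stood 0.51 ± 0.09 above WT, *E1E2 G9Gl* 0.37 ± 0.09 and *6KO2* 0.34 ± 0.09 (edgeR adjusted p = 6.03e-05, 0.000829 and 0.00197). No step after *E2* passed, and neither did *E1* against WT (0.25 ± 0.09, edgeR adjusted p = 0.0522). In the first series *E1 S1S2* was higher by 0.42 ± 0.09 and *6KO1* by 0.28 ± 0.09 (edgeR adjusted p = 0.000408 and 0.00805). WT replicate 2 was the lowest of all 24 libraries for this gene. Without it the changes were 0.52 (*E2*), 0.37 (*E1E2*), 0.27 (*E1 S1S2*), 0.22 (*E1E2 G9Gl*) and 0.20 (*6KO2*), all still passing, and 0.13 in *6KO1*, which did not pass (edgeR adjusted p = 0.0695) and was lost for 12 of the 24 libraries left out in turn. Without WT replicate 1, *E1* passed as well (0.35, edgeR adjusted p = 0.00776). Fitted with the 6 libraries of a comparison alone, none of the 6 passed.

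*Kdm3a* passed in no comparison in edgeR with all libraries and the filter on low counts, and its widest spread was within a condition. WT had 1613, 1566 and 1551 normalized counts, and *E1*, *E1 S1S2*, *E1E2*, *E1E2 G9Gl* and *6KO2* lay between 1320.3 and 1807. *6KO1* had 1933, 1893 and 1819, above every WT library (0.26 ± 0.14, edgeR adjusted p = 0.109). With the 6 libraries compared alone, *6KO1* passed against WT (0.25 ± 0.07, edgeR adjusted p = 0.00998) and against *E1 S1S2* (0.23 ± 0.04, 0.000206). *6KO2* then also passed as lower than *6KO1* (-0.25 ± 0.07, edgeR adjusted p = 0.00851), as it did without the filter on low counts (-0.25, 0.00496). *E2* had 2896, 1466 and 1971. Replicate 1 of *E2* was the highest of all 24 libraries and replicate 2 was below every WT library. The change in *E2* against WT was 0.42 ± 0.14 (edgeR adjusted p = 0.0235) with all libraries and 0.12 ± 0.10 (edgeR adjusted p = 0.406) without replicate 1. Without replicate 2 it was 0.63 and passed (edgeR adjusted p = 0.000182). The step from *E2* to *E1E2* then passed too (-0.70, edgeR adjusted p = 0.000143), against -0.49 (edgeR adjusted p = 0.016) with all libraries. Without the filter on low counts, the change and the step both passed (0.42 and -0.51, edgeR adjusted p = 1.29e-06 and 6.4e-09). With DESeq2 the step passed (-0.50, DESeq2 adjusted p = 0.00604).

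In the same *E2* libraries, 13 hypoxia-inducible genes of a list of 14 could be tested (*Car9* did not pass the filter), and all 13 followed the order of *Kdm3a*, with replicate 1 highest, replicate 3 next and replicate 2 lowest. *Bnip3*, a mitophagy receptor, had 1104, 304 and 485 normalized counts in replicates 1, 2 and 3. *Slc2a1*, the glucose transporter GLUT1, had 2286, 992 and 1502, and *Vegfa*, the angiogenic growth factor, 1342, 823 and 1016. These genes did not follow the order of *Kdm3a* in WT. There *Kdm3a* had 1613, 1566 and 1551 normalized counts in replicates 1, 2 and 3. *Bnip3* had 457, 642 and 521, *Slc2a1* 1205, 1216 and 1142, and *Vegfa* 1035, 824 and 1024. The ratio of replicate 1 to replicate 2 was 1.97 for *Kdm3a* and 1.26 to 4.23 for the 13 genes, with a median of 1.63. Over 11347 genes with a mean above 100 the median of this ratio was 1.01, and 0.837% reached the value of *Kdm3a*. In *6KO2*, where *Kdm3a* had 1807, 1421 and 1469 normalized counts, replicate 1 was also highest for 13 of the 13 genes (median ratio 1.17, *Kdm3a* 1.27). The full order of *Kdm3a*, with replicate 3 next and replicate 2 lowest, held for 7 of them. Over 11676 genes with a mean above 100 in *6KO2* the median ratio was 1.01, and 2.0% reached the value of *Kdm3a*. The share of all genes in these orders was not counted for either condition. The oxygen supply of the cultures was not recorded in the labels, and a part of culture conditions in the *Kdm3a* values was not tested. Against WT, 4 of the 13 rose and 1 fell in *E2* (median log2 change 0.21, *Kdm3a* 0.42), where 27.0% of all genes passed. From *E2* to *E1E2* 0 rose and 6 fell (median -0.52, *Kdm3a* -0.49), where 11.9% of all genes passed. In *6KO1*, where *Kdm3a* was at 0.26 and did not pass with all libraries, 0 of the 13 rose and 6 fell. The share of the list that passed was below that of all genes (66.2%). Among the 6 were *P4ha1* (-1.34), *Ldha* (-0.99), *Pdk1* (-0.83) and *Pgk1* (-0.57), enzymes of collagen hydroxylation and glycolytic metabolism. The median of the list was -0.46 (0.06 over all genes).

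**Figure D4:**
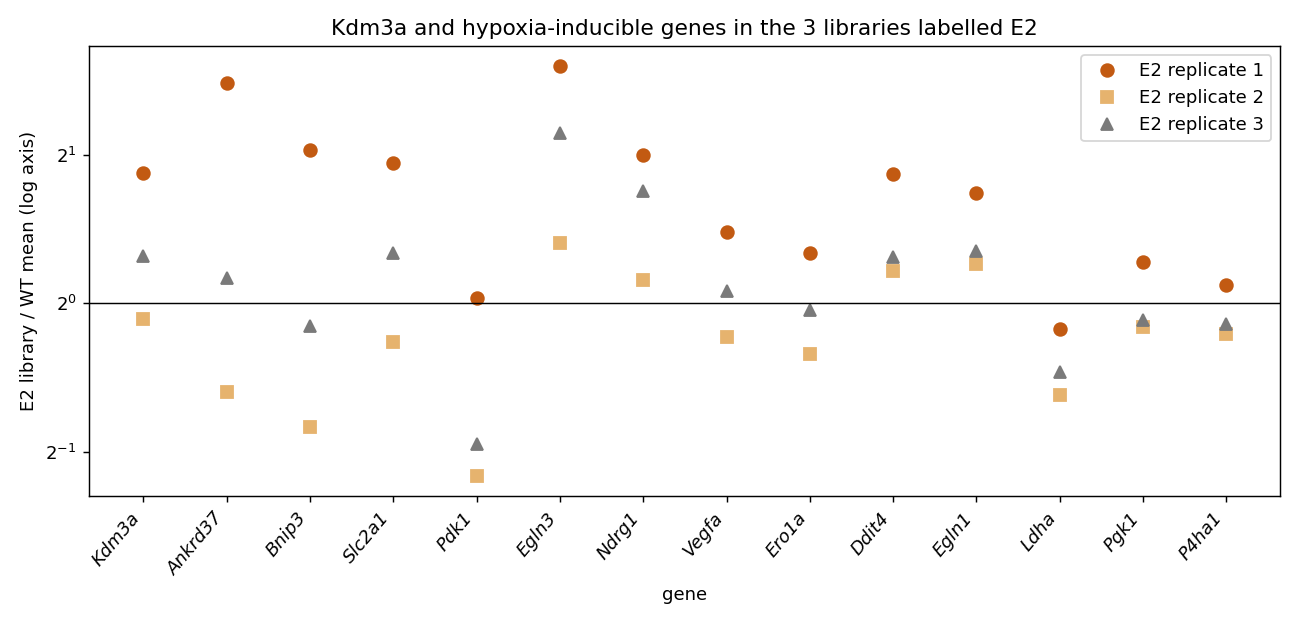
Level of *Kdm3a* and 13 hypoxia-inducible genes (horizontal axis) in each of the 3 *E2* libraries as a ratio to the WT mean (vertical axis, log scale); each point is 1 library. Replicate 1 is above replicate 3, and replicate 3 above replicate 2, for all 14 genes.

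*Kdm1a*, the flavin-dependent enzyme, passed as lower than WT in the lines without *G9a* and *Glp*. WT libraries had 2758, 2384 and 2704 normalized counts, and *E1*, *E2* and *E1E2* libraries lay between 2699.7 and 3057. *E1 S1S2* had 2491, 2530 and 2528, within the range of WT. The step from *E1* to *E1 S1S2* was -0.15 ± 0.06 (edgeR adjusted p = 0.0313), and it passed without WT replicate 2 (-0.15, edgeR adjusted p = 0.00691). *6KO1* had 1897, 1858 and 1779, *E1E2 G9Gl* 2109, 2105 and 2122, and *6KO2* 2286, 2401 and 2160.2. *6KO1* and *E1E2 G9Gl* lay below each WT library, and the highest *6KO2* library overlapped the lowest of WT. The changes against WT were -0.50 ± 0.06, -0.31 ± 0.06 and -0.20 ± 0.06 (edgeR adjusted p = 2.96e-08, 3.82e-05 and 0.00386). Both steps that removed *G9a* and *Glp* passed with a like size, -0.45 ± 0.06 from *E1 S1S2* to *6KO1* and -0.45 ± 0.06 from *E1E2* to *E1E2 G9Gl* (edgeR adjusted p = 2.94e-07 and 2.29e-07), and *Eset2* was lost in the first of them as well. *6KO2* was above *6KO1* by 0.31 ± 0.06 (edgeR adjusted p = 5.83e-05), without overlap. All 3 calls against WT were also made without WT replicate 2, but the one in *6KO2* was lost without WT replicate 1 or 3 (-0.16 and -0.17, edgeR adjusted p = 0.0253 and 0.0207) and without *6KO2* replicate 1 or 3 (-0.20 and -0.16, edgeR adjusted p = 0.0117 and 0.0306). It was also lost with no filter on low counts (edgeR adjusted p = 0.0132), with a mean above 100 (0.0269) and with the 6 libraries alone (0.111), where the call in *E1E2 G9Gl* was lost too (0.015). The 120 genes within 5 Mb of *Kdm1a* had a median change of 0.01 in *6KO1* and 0.20 in *6KO2*.

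Of 10 genes of the CoREST complex and of the Phf2 partner *Arid5b*, 1 rose and 4 fell in *6KO1* (66.2% of all genes passed), 4 rose and 4 fell in *E1E2 G9Gl* (59.1%), and 2 rose and 6 fell in *6KO2* (54.5%). The share of the list was below that of all genes in *6KO1* and above it in the other lines. *Rcor2*, a CoREST scaffold that binds Kdm1a, had a mean of 1347 ± 187 normalized counts in WT and 274 ± 32.2 in *6KO1* (SD, n = 3 each), a log2 change of -2.29 ± 0.10 SE. It was also lower in *E1E2 G9Gl* (-2.20) and *6KO2* (-1.57). *Gse1*, a CoREST-associated protein, was higher in these lines (1.60, 1.29 and 1.28 in the same order), while *Hdac2*, a deacetylase of the complex, was lower (-1.14, -0.32 and -0.38). *Arid5b*, which recruits Phf2, was lower in all 3 lines (-1.11, -1.62 and -0.58), in which *Phf2* itself was higher. All these changes passed the test. *Hdac1*, the other deacetylase of the list, had a mean of 547 normalized counts in WT and 370, 444 and 384 in *6KO1*, *E1E2 G9Gl* and *6KO2*.

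Among 16 further genes of histone demethylases and their relatives, 5 rose and 7 fell in *6KO1*, 2 rose and 6 fell in *E1E2 G9Gl* and 5 rose and 4 fell in *6KO2*, near the shares of all genes that passed (66.2%, 59.1% and 54.5%). *Kdm2b*, an H3K36 demethylase of a Polycomb complex, changed by -0.69, *Kdm8* by -0.67 and *Jmjd1c*, the relative of *Kdm3a*, by -0.64 in *6KO1*. *Hr*, another JmjC protein of the Kdm3 kind, was higher by 0.61 in *6KO1* and by 2.08 in *6KO2*, and changed by -1.85 in *E1 S1S2*; the call in *6KO1* was lost without WT replicate 2 (0.50, edgeR adjusted p = 0.0281). The median of the list was -0.06 in *6KO1*, and the member list and this list both held changes in either direction.

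No condition had 4-OHT without the deletion of *Eset1* exons, so drug and deletion cannot be told apart. Their joint effect was compared between the parent clone (*E1* against WT) and the *Eset2* clone (*E1E2* against *E2*). The only member that passed in the latter was *Kdm7a*, which fell by 0.45 on the log2 scale from the libraries labelled *E2* to those labelled *E1E2* (edgeR adjusted p = 0.00141), while the value in the parent clone was -0.27 and did not pass. The call was lost without *E1E2* replicate 3 (-0.40, edgeR adjusted p = 0.0143) and with the 6 libraries alone (0.0153). The difference between these effects passed for 0 of the 8 members with edgeR (8.89% of all genes passed, 0 members passed with DESeq2, 2 members had an unadjusted p under 0.05) and was largest for *Kdm3a* (-0.45 ± 0.20, edgeR adjusted p = 0.149) and *Kdm3b* (-0.40 ± 0.13, edgeR adjusted p = 0.0343). The value of *Kdm3a* rested on the *E2* replicates: it was -0.16 ± 0.14 without replicate 1 (edgeR adjusted p = 0.54), when *Kdm3b* was larger, and -0.66 without replicate 2 (edgeR adjusted p = 0.00494). That of *Kdm3b* was -0.50 and passed without WT replicate 1 (edgeR adjusted p = 0.00614).

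Per kilobase of merged exons, *Kdm1a* (20.1 ± 1.55 CPM per kb in WT, SD, n = 3) and *Kdm4a* (18.3 ± 2.44) had the highest levels. *Kdm3a* (7.63), *Kdm4c* (6.80), *Phf2* (6.78), *Kdm4b* (6.09) and *Kdm3b* (4.94) followed. With the longest transcript as length, *Kdm3b* (10.9) lay between *Kdm3a* (12.9) and *Kdm4c* (9.44). *Kdm7a* (0.874 ± 0.0904) and *Kdm4d* (0.0473 ± 0.0427) were the lowest. In *6KO1*, its highest condition, *Kdm7a* reached 2.39 CPM per kb, below the WT level of the 7 members above it.

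Over the 8 condition means, *Kdm1a* and *Kdm4a* varied together (r = 0.795) and *Kdm4a* and *Phf2* in opposite directions (r = -0.815), which describes 8 points from related clones and carries no test. The genes closest to each well-counted member in this measure were picked as the highest of all genes tested, so a high r follows from the choice. They were *Gadd45gip1* (r = 0.990) and *Mir7238* for *Kdm1a*, *Gm23094* (r = 0.968) and *Dcaf15* for *Kdm3b*, and *Gm37827* (r = 0.902) and *Gm37509* for *Kdm3a*. For *Kdm4a* they were *Gm11706* (r = 0.971) and *Lars*, for *Kdm4b* *Ephx3* (r = 0.928) and *Slc17a5*, and for *Kdm4c* *Fam50a* (r = 0.976) and *Hps3*. None are given for *Kdm4d*, which entered the fit through the lines in which it was high. For *Kdm7a* they were *Zfp59* (r = 0.972) and *Ypel4*, and for *Phf2* *Pld4* (r = 0.997) and *Tnfrsf1b*. Several of these genes had few counts, such as *Gm11706* (mean 6.71 normalized counts), *Ypel4* (7.26) and *Pld4* (15.5).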

How the data were processed

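RNA-seq of 24 MEF cultures was analysed, grouped by the sample labels into 8 conditions of 3. The authors trimmed reads with cutadapt 1.8.1, aligned them to GRCm38 with STAR 2.5.2b and counted genes and repeats with TEtranscripts. The deposited table holds these as whole-number counts without normalization. Reads were not processed again. Of its entries, 47937 are genes and 1 malformed entry (at most 0.002708% of a library) was left out. Gene symbols, positions and exons come from GENCODE on GRCm38.

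Genes passing edgeR's filterByExpr (18565) were scaled with TMM factors and tested with edgeR 4.0.16 (R 4.3.3): a quasi-likelihood fit over all 24 libraries, 1 coefficient per condition, two-sided, Benjamini-Hochberg adjusted over all genes tested, in 13 comparisons and 1 difference of comparisons. The 9 members and the gene lists were chosen with earlier results of these data known. Named genes were the members, the 6 targeted methyltransferase genes as a check, and up to 4 genes per further list with the largest change in *6KO1* among those that passed. The 2 genes nearest each member except *Kdm4d* were named too. *Bnip3*, *Slc2a1*, *Vegfa*, *Hdac1* and the markers were named after their values were seen. Counts limit precision through both counting error and culture spread. The comparison of *6KO1* with WT was also run on simulated counts with known changes. Alternatives were DESeq2 1.42.0, RLE factors, factors from genes and repeats, no filter, a mean above 100, the 6 libraries compared alone, a replicate block, and each library left out in turn. Figures used matplotlib 3.10.9. The authors' ChIP-seq, ATAC-seq and protein data were not analysed here. Proteins were not measured in this table.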

Additional observations from a re-analysis of the deposited data

Results flagged for a closer look

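Among the 8 well-counted members, 2 responded differently in the *6KO* lines by edgeR's test of the difference between them. This test was passed by 49.2% of all genes. *Kdm3a* passed it with the 6 libraries compared alone (-0.25, edgeR adjusted p = 0.00851) or without the filter on low counts (-0.25, 0.00496). *Kdm7a* was higher in *6KO1* and lower in *6KO2* than in WT, and the change in *6KO2* minus that in *6KO1* was -1.95 on the log2 scale (edgeR adjusted p = 2.16e-14), with no overlap between the 3 libraries of each line. *Kdm1a* was lower than WT in both, less so in *6KO2*, by a difference of 0.31 (edgeR adjusted p = 5.83e-05). Each line is 1 clone with its own order of mutations, so clone and order cannot be told apart.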

How the results depend on the processing

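Of 112 results (the 8 well-counted members in 14 comparisons), 35 passed and 17 of them passed under all alternatives, among them *Kdm7a* in *6KO1* against WT. The replicate number was not a pairing: deviations of same-numbered libraries correlated between -0.29 and 0.24, and with the replicate block no member call changed (*Kdm7a* in *6KO1* 1.45). Fitted with the 6 libraries compared alone, against WT 2 members passed for *E1 S1S2*, 0 for *E2*, 0 for *E1E2*, 2 for *E1E2 G9Gl* and 1 for *6KO2*, and 5 from *E1 S1S2* to *6KO1* and 4 from *E1E2* to *E1E2 G9Gl*. Without the filter, 3 passed in *E2* against WT, 3 from *E2* to *E1E2* and 2 for the difference of the 4-OHT effects. With DESeq2, 2 passed from *E2* to *E1E2*, and with a mean above 100 *Kdm7a* reached 2-fold from *E1 S1S2* to *6KO1* (1 member). With 1 library left out, the count ranged from 0 to 2 in *E1* against WT (2 without WT replicate 2, 1 without WT replicate 1), from 1 to 2 in *E2* against WT (2 without *E2* replicate 2), from 2 to 4 in *E1E2* against WT (4 without WT replicate 2), from 0 to 3 from *E2* to *E1E2* (3 without WT replicate 2, 2 without *E2* replicate 2, 0 without *E1E2* replicate 3), from 1 to 2 from *E1E2* to *E1E2 G9Gl* (1 without *E1E2 G9Gl* replicate 2) and from 0 to 1 for the difference of the 4-OHT effects (1 without WT replicate 1 or *E2* replicate 2). The counts in *6KO1*, *6KO2* and *E1 S1S2* against WT fell too. *Kdm3b* and *Phf2* were lost in *6KO1* without its replicate 1 (edgeR adjusted p = 0.0773 and 0.0156). *Kdm1a* and *Phf2* were lost in *6KO2* without its replicate 1 (edgeR adjusted p = 0.0117 and 0.0233). *Kdm4a* was lost in *E1 S1S2* without its replicate 2 (edgeR adjusted p = 0.0126). The cause was not tested. Every change of sign was in a result that had not passed. The sign changed with RLE factors for *Kdm3a* E1 S1S2 vs WT (0.011), *Kdm4a* E2 vs WT (0.00065), *Kdm4b* E1 S1S2 vs WT (0.00087) and *Kdm4c* 6KO2 vs 6KO1 (-0.0016). The sign changed with factors from genes and repeats for *Kdm3a* E1 S1S2 vs WT (0.0017), *Kdm4a* E2 vs WT (0.0041) and *Kdm7a* E2 vs WT (0.0030). The sign changed without the filter for *Kdm3a* E1 S1S2 vs WT (0.016) and *Kdm4b* E1 S1S2 vs WT (0.0072). The sign changed with a mean above 100 for *Kdm3a* E1 S1S2 vs WT (0.036), *Kdm3a* 6KO2 vs WT (0.032), *Kdm3a* E1E2 G9Gl vs E1E2 (0.0079), *Kdm4a* E2 vs WT (0.0048), *Kdm4a* 6KO2 vs 6KO1 (-0.017), *Kdm4b* E1 S1S2 vs WT (0.022), *Kdm4c* 6KO2 vs 6KO1 (-0.038) and *Kdm7a* E2 vs WT (0.0060). The sign changed with DESeq2 for *Kdm3a* E1 S1S2 vs WT (0.011), *Kdm4a* E2 vs WT (0.0011), *Kdm4c* 6KO2 vs 6KO1 (-0.0014) and *Kdm7a* E2 vs WT (0.0024). The sign changed with the 6 libraries compared for *Kdm3a* E1 S1S2 vs WT (0.036), *Kdm4a* E2 vs WT (0.017), *Kdm4b* E1 S1S2 vs WT (0.022) and *Kdm7a* E2 vs WT (0.016). Over the libraries left out in turn, uncalled changes spanned 0 as follows: *Kdm1a* difference of 4-OHT effects -0.091 to 0.014, *Kdm3a* E1 S1S2 vs WT -0.019 to 0.021, *Kdm3a* E1E2 vs WT -0.14 to 0.0075, *Kdm3a* 6KO2 vs WT -0.13 to 0.056, *Kdm3a* E1E2 G9Gl vs E1E2 -0.12 to 0.028, *Kdm3a* 6KO2 vs E1E2 G9Gl -0.017 to 0.17, *Kdm3b* 6KO2 vs E1E2 G9Gl -0.084 to 0.0042, *Kdm4a* E2 vs WT -0.11 to 0.062 and *Kdm4a* difference of 4-OHT effects -0.045 to 0.13. Again over the libraries left out in turn, uncalled changes spanned 0 as follows: *Kdm4b* E1 vs WT -0.21 to 0.059, *Kdm4b* E1 S1S2 vs WT -0.19 to 0.085, *Kdm4b* 6KO1 vs WT -0.042 to 0.23, *Kdm4b* E2 vs WT -0.049 to 0.22, *Kdm4b* 6KO2 vs WT -0.11 to 0.16, *Kdm4b* E1 S1S2 vs E1 -0.032 to 0.081, *Kdm4b* 6KO2 vs 6KO1 -0.12 to 0.013, *Kdm4c* E1 vs WT -0.036 to 0.066 and *Kdm4c* 6KO2 vs 6KO1 -0.028 to 0.019. Also over the libraries left out in turn, uncalled changes spanned 0 as follows: *Kdm4d* E1 vs WT -0.034 to 1.30, *Kdm4d* E2 vs WT -0.66 to 0.68, *Kdm4d* 6KO2 vs E1E2 G9Gl -0.25 to 0.40, *Kdm4d* difference of 4-OHT effects -0.38 to 0.96, *Kdm7a* E2 vs WT -0.087 to 0.064, *Phf2* E1 vs WT -0.023 to 0.21, *Phf2* E1E2 vs E2 -0.083 to 0.074, *Phf2* 6KO2 vs 6KO1 -0.17 to 0.0072 and *Phf2* difference of 4-OHT effects -0.22 to 0.015. Depth limited *Kdm4d*, with 0 to 16 counts a library.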
